A study of Equus caballus with 14 samples.

Results

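Some genes that are well expressed on average in the equine corpus luteum differ many-fold from one gland to the next. At day 11 after ovulation 66 such genes were described here, out of 30371 in the deposited count table. They were chosen from CPM values (the count of a gene times 1000000, divided by the total count of its library). Genes averaging 10 CPM or more over the 8 day 11 libraries were taken, without the 100 most abundant genes of all 14 libraries, which left 8440. The 70 with the highest standard deviation (SD) of log2(CPM + 0.1) over the 8 day 11 libraries were selected. From these 70, 3 genes under 0.1 CPM in some day 11 library and 1 gene excluded by its identifier were dropped. The mean alone had to pass 10 CPM, and 44 members were under 10 CPM in at least 1 day 11 gland, the lowest at 0.364 CPM. The day 11 values thus chose the members, and every comparison that uses them is given as a description that supports nothing. The 6 day 13 libraries had no part in ranking the spread, and they show whether the glands kept their order.

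The corpus luteum is the gland that forms from the ovulated follicle and secretes progesterone. In a mare that is not pregnant it regresses under uterine prostaglandin, and in early pregnancy it is kept. A biopsy of it holds steroidogenic luteal cells together with endothelial, smooth muscle, connective tissue and immune cells. In such bulk tissue, fewer cells of a type and less RNA per cell cannot be told apart. Mares of an outbred population also differ from one another in their alleles and in their physiological state when sampled.

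The biopsies came from healthy, cycling light breed mares and were taken through the vaginal wall. There were 4 libraries from non-pregnant mares at day 11 (NP11), 4 from pregnant mares at day 11 (P11), 4 from non-pregnant mares at day 13 (NP13) and 2 from pregnant mares at day 13 (P13). They came from 8 glands of 6 mares. Kate and Emma gave 2 glands each, and Kiwi, Cornelia, Roanie and Gisela gave 1 each. The glands of Roanie (NP11) and Gisela (P11) were sampled at day 11 alone, and the other 6 glands on both days, so every day 13 gland had been biopsied at day 11. The first gland of Kate is labelled pregnant at day 11 and non-pregnant at day 13, while the second gland of Kate is labelled non-pregnant on both days. The first gland of Emma was pregnant and the second non-pregnant on both days, Kiwi was non-pregnant and Cornelia pregnant. Library totals ran from 20182039 to 32186736 counts. The lowest count of any member was 11 reads at day 11 and 4 reads at day 13. The table names genes by Ensembl identifier, and 0 of these were paired with a symbol in the reference table used here. Members are therefore given by identifier, and the tissue label could not be checked against marker genes.

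At day 11 the highest library of a member exceeded the lowest by 6.6-fold to 173-fold, with a median of 15.7-fold. The mean day 11 abundance of the members ran from 10.03 to 661 CPM. The SD of log2(CPM + 0.1) at day 11 had a median of 1.34 over the members and 0.20 over all 8540 genes that averaged 10 CPM or more. Just inside the limit stood SDs of 1.028, 1.025 and 1.023, and just outside it 1.022, 1.015 and 1.013, so the limit parts a continuous range. Extreme values of the members fell on few libraries. The day 11 library of Kiwi was the highest of the 8 for 16 members, that of Roanie for 15, that of Gisela for 13 and that of the second gland of Kate for 10. The day 11 library of Cornelia was the lowest for 28 members. The same counts over all genes are not given, so whether these libraries are extreme for genes at large was not tested.

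Members that varied together over the 8 day 11 libraries were grouped by average linkage on 1 minus Pearson's r, parted at a distance of 0.5. This gave 7 groups of at least 3 members, named A to G by size, which hold 59 of the 66 members. The other 7 members are in smaller sets. Groups A and B hold 13 members each, group C 12, groups D and E 6 each, group F 5 and group G 4.

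**Figure D1:**
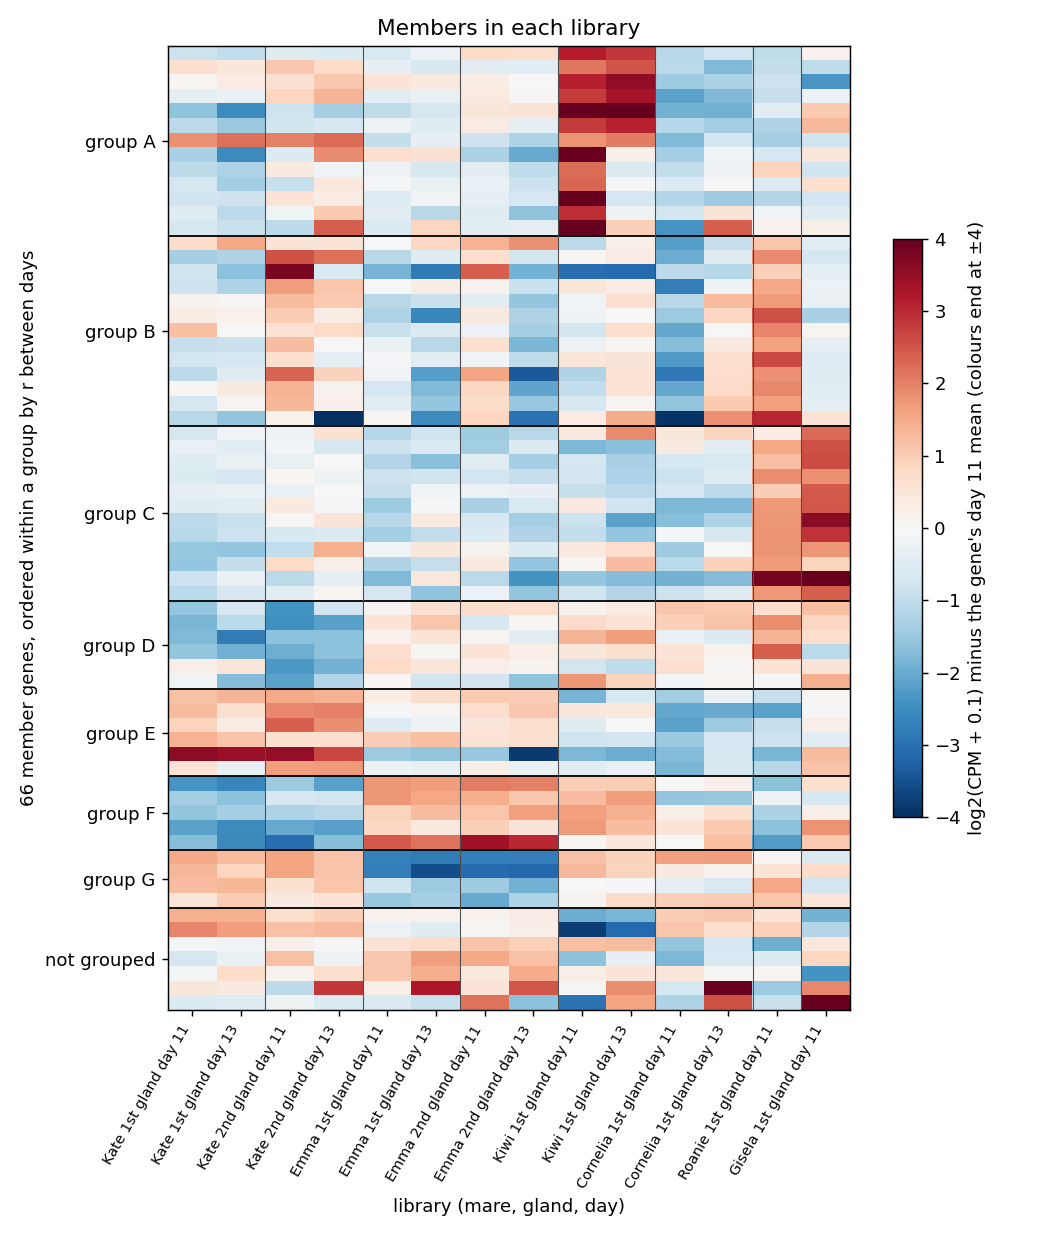
Each row is 1 of the 66 members and each column a library, with the days of a gland side by side; colour gives log2(CPM + 0.1) minus the gene's mean over the 8 day 11 libraries. Groups D to G look alike on both days of a gland, while group B changes colour most between days in Cornelia and in the second gland of Emma, and group C is high in Roanie and Gisela.

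The question put to the day 13 libraries was whether glands that were high at day 11 were still high 2 days later. Of the 66 members, 28 kept their order with a Spearman's rho of at least 0.8 over the 6 glands sampled on both days. Over all 8540 genes that averaged 10 CPM or more, 15.3% reached that value. The median rho was 0.66 over the members and 0.49 over those genes. These are descriptions over 6 glands from 4 mares, with no p-value, because glands of 1 mare are not independent. The other genes differ far less between glands, and how far that lowers their rho was not tested.

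The members fell apart into those that held their order closely and those that did not. Pearson's r between the days was at least 0.9 for 31 members, where 7.97% of all these genes reached 0.9. It was under 0.5 for 25 members, against 50.0% of all these genes, and below 0 for 10 of the 25. In between stood 10 members. The same gland was the highest of the 6 on both days for 35 members (32.5% of all genes), and the same gland was the lowest for 29 (33.1% of all genes). When the glands of a mare were averaged, which leaves 4 mares, rho reached 0.8 for 38 of 66 members and 41.2% of all genes. A rho of 0.8 is easier to reach with 4 values than with 6. The narrower gap to the background therefore says nothing about mares as against glands.

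Most members still had a wide spread at day 13. The SD over the 6 day 13 libraries had a median of 1.11 over the members, and it ran from 0.35 to 2.91. Over the 8540 genes its median was 0.18. An SD above 1 at day 13 was found for 42 of 66 members, where 0.738% of all these genes exceeded 1. These SDs leave out Roanie and Gisela, which the day 11 SDs include. The smallest SDs at day 13 were mostly in group C. In the same 6 glands the median SD of group C was 0.53 at day 11 and 0.67 at day 13.

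**Figure D2:**
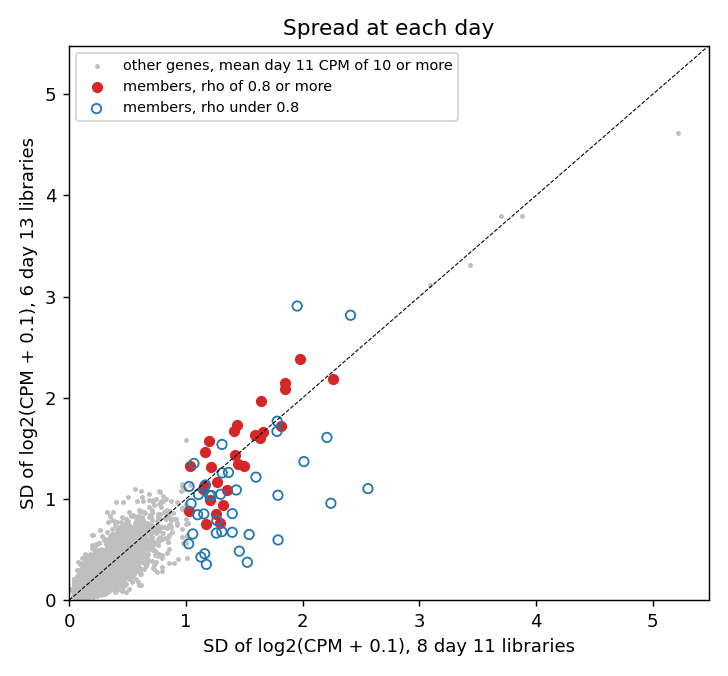
The SD of log2(CPM + 0.1) over the 8 day 11 libraries (x axis) is plotted against that over the 6 day 13 libraries (y axis) for members and for the other genes averaging 10 CPM or more; the dashed line marks equal values. Many members with a rho of at least 0.8 (filled) lie near the line, but some lie well below it, such as ENSECAG00000006840 at 1.26 and 0.85. Many of the others (open) also lie below it. The few grey points with the highest SDs are genes left out by the rule.

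Group G holds genes that were low in both glands of Emma. All 4 of its members kept their order, with r from 0.97 to 0.997. ENSECAG00000042431 stood at 1.10 and 1.06 CPM in the first and second gland of Emma at day 11, and at 22.2 and 23.0 CPM in those of Kate, 17.6 CPM in Kiwi, 24.2 CPM in Cornelia, 8.30 CPM in Roanie and 5.06 CPM in Gisela. At day 13 it stood at 1.03 and 1.06 CPM in the glands of Emma, 18.8 and 17.0 CPM in those of Kate, 14.6 CPM in Kiwi and 24.6 CPM in Cornelia. The glands of Emma were more than 10-fold below every other gland at day 13, and the 4 libraries of this mare, taken in June and in August, agreed closely. ENSECAG00000041480 had the same outline. It was at 1.57 and 1.26 CPM in the glands of Emma at day 11 and 14.7 to 33.8 CPM in the other 6 glands, then at 0.87 and 1.19 CPM against 12.8 to 24.8 CPM at day 13.

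The most abundant member of all, ENSECAG00000029274, is also in group G. At day 11 it stood at 187 and 131 CPM in the first and second gland of Emma, 742 and 681 CPM in those of Kate, 594 CPM in Kiwi, 1044 CPM in Cornelia, 1158 CPM in Roanie and 746 CPM in Gisela. By day 13 the level was 213 and 228 CPM in the glands of Emma and between 780 and 1071 CPM in the other 4. Emma was again apart from all other mares, here with levels that were reduced and not near the floor. The fourth member, ENSECAG00000012778, ran from 4.63 CPM in the second gland of Emma to 35.8 CPM in Roanie at day 11, and the 6 glands had exactly the same order at day 13, with a rho of 1.

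Group F was lowest in a gland of Kate for 4 of its 5 members at day 11 and highest in a gland of Emma for 3. All 5 members had an r of at least 0.93, and 4 of 5 had a rho of at least 0.8. ENSECAG00000023905 stood at 5.94 and 11.3 CPM in the first and second gland of Kate at day 11, 105 and 127 CPM in those of Emma, 61.4 CPM in Kiwi, 31.5 CPM in Cornelia, 9.84 CPM in Roanie and 48.2 CPM in Gisela. At day 13 the values were 4.98 and 6.77 CPM in Kate, 99.3 and 124 CPM in Emma, 62.3 CPM in Kiwi and 35.9 CPM in Cornelia. No gland changed its place. ENSECAG00000033152 was at 1.12 and 0.383 CPM in Kate, 0.751 CPM in Roanie and 21.8 and 41.2 CPM in Emma at day 11, and at 0.566 and 1.12 CPM in Kate against 17.6 and 32.3 CPM in Emma at day 13. ENSECAG00000023606, the most abundant of the group, ran from 21.9 CPM in Cornelia to 222 CPM in the first gland of Emma at day 11. At day 13 Kiwi, at 208 CPM, had passed the glands of Emma, at 190 and 138 CPM.

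Group E was highest in a gland of Kate for all 6 members at day 11. Of the 6, 4 kept their order, and r ran from 0.80 to 0.99. ENSECAG00000023361 has the second highest day 11 SD of all members, 2.41. At day 11 it stood at 46.6 and 44.2 CPM in the first and second gland of Kate, 9.24 CPM in Gisela and 1.0 to 1.32 CPM in the other 5 glands. At day 13 it stood at 42.0 and 24.7 CPM in Kate and 0.176 to 2.42 CPM in the other 4 glands. Kate was at least 10-fold above the other mares at day 13, although the rho of this gene was 0.71, since the low glands changed places. ENSECAG00000005855, the most abundant of the group, stood at 227 and 357 CPM in Kate and 22.6 CPM in Cornelia at day 11, and at 152 and 381 CPM in Kate and 23.3 CPM in Cornelia at day 13. ENSECAG00000006840 kept the same order of all 6 glands, from 2.65 CPM in Kiwi to 28.5 CPM in the second gland of Kate at day 11 and from 6.44 to 25.9 CPM at day 13.

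Group D was lowest in a gland of Kate for all 6 members at day 11. Of the 6 glands sampled on both days the highest at day 11 was the first gland of Emma, Cornelia or Kiwi, for 2 members each. Of the 6 members, 3 kept their order, and r ran from 0.70 to 0.97. Its most abundant member, ENSECAG00000036703, stood at 74.9 and 80.0 CPM in Kate, 287 and 272 CPM in Emma, 645 CPM in Kiwi, 206 CPM in Cornelia, 642 CPM in Roanie and 411 CPM in Gisela at day 11. Its day 13 values were 36.3 and 81.1 CPM in Kate, 371 and 184 CPM in Emma, 807 CPM in Kiwi and 172 CPM in Cornelia. The order of the 6 glands was the same on both days.

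Among the members outside these groups, ENSECAG00000011290 had an r of 0.997. It stood at 234 and 144 CPM in the glands of Kate, 97.9 and 96.5 CPM in those of Emma, 22.0 CPM in Kiwi and 172 CPM in Cornelia at day 11. The day 13 values were 236 and 169 CPM in Kate, 99.1 and 110 CPM in Emma, 24.6 CPM in Kiwi and 185 CPM in Cornelia. The mean change between the days of a gland was 0.12 on the log2 scale, against a mean distance of 1.46 between glands of different mares at day 13. ENSECAG00000029414 had the same outline at lower abundance, from 0.364 CPM in Kiwi to 24.9 CPM in the first gland of Kate at day 11 and from 0.644 to 20.6 CPM in the same glands at day 13.

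Group A is led by Kiwi, whose day 11 library was the highest for 12 of its 13 members. At day 13 these members went separate ways. For 7 of them the level in Kiwi moved by at most 0.50 on the log2 scale, and r was 0.96 to 0.99. For the other 6 it fell by 2.38 to 4.91 on the log2 scale, and r was at most 0.37. The second gland of Kate was then the highest for all 6 of these. The parting was seen in the day 13 values and is a description. Kiwi led these members at day 11, so some fall there is expected from the choice, and how much was not tested.

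Of the members that stayed high in Kiwi, ENSECAG00000030686 had the highest SD. At day 11 it stood at 279 CPM in Kiwi, 30.5 CPM in Gisela, 20.4 CPM in the second gland of Emma and 3.85 to 10.8 CPM in the other 5 glands. At day 13 it stood at 241 CPM in Kiwi, 21.5 CPM in the second gland of Emma and 2.43 to 9.20 CPM in the other 4. ENSECAG00000007595 was at 339 CPM in Kiwi and 17.8 to 67.2 CPM elsewhere at day 11, then at 273 CPM against 19.4 to 62.9 CPM. ENSECAG00000020074 was at 65.9 CPM in Kiwi and 1.42 to 11.5 CPM elsewhere at day 11, then at 89.2 CPM against 3.08 to 16.1 CPM. In each of the 3 genes Kiwi lay above all other glands on both days.

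ENSECAG00000010565 separated the mares more finely. At day 11 it stood at 139 CPM in Kiwi, 50.6 and 67.6 CPM in Kate, 25.6 and 23.4 CPM in Emma, 15.1 CPM in Cornelia, 16.6 CPM in Roanie and 15.7 CPM in Gisela. By day 13 it was at 184 CPM in Kiwi, 44.5 and 53.3 CPM in Kate, 20.4 and 24.0 CPM in Emma and 9.37 CPM in Cornelia. The order of the 4 mares was the same on both days, and among these 4 the glands of 1 mare did not overlap those of another.

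The 6 members of group A that fell in Kiwi had all been highest there at day 11. Of these, ENSECAG00000008236 stood at 1545 CPM in Kiwi and 121 to 179 CPM in the other 7 glands. At day 13 Kiwi held 175 CPM, the second gland of Kate 411 CPM, Cornelia 289 CPM, the first gland of Kate 96.6 CPM and the glands of Emma 91.9 and 65.9 CPM. ENSECAG00000017191 stood at 186 CPM in Kiwi and 1.45 to 9.24 CPM elsewhere at day 11. By day 13 it was at 15.1 CPM in Kiwi, 42.6 CPM in the second gland of Kate, 41.5 CPM in Cornelia, 14.2 CPM in the first gland of Emma, 6.03 CPM in the second and 4.17 CPM in the first gland of Kate. Cornelia, the lowest gland at day 11, had come to lie next to the highest.

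**Figure D3:**
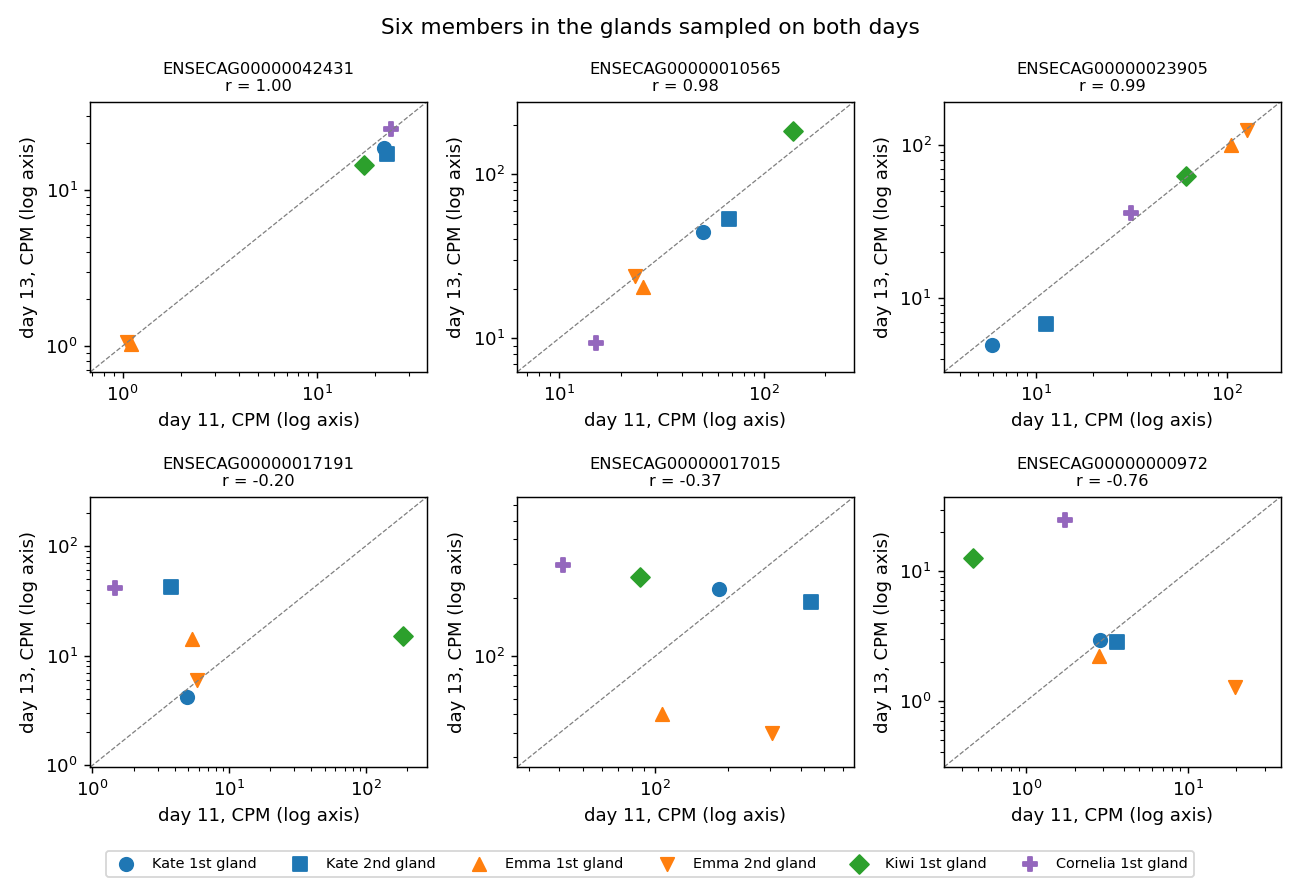
Each panel plots the CPM of 1 member at day 11 (x axis) against day 13 (y axis) for the 6 glands sampled on both days, on log axes, with the dashed line at equal values. In the upper row (r of 0.98 to 0.997) glands lie along the line with those of a mare together. In the lower row (r of -0.20, -0.37 and -0.76) Cornelia lies above the line in every panel. The gland highest at day 11, from left to right Kiwi, the second gland of Kate and the second gland of Emma, lies below it.

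In group B few members kept their order. Its 13 members were lowest in Cornelia at day 11 in 11 cases and highest in Roanie in 8. At day 13 a rho of at least 0.8 was reached by 1 of the 13, and r ran from -0.57 to 0.95 with a median of 0.13. In Cornelia 12 of the 13 members were more than 1 higher on the log2 scale at day 13 than at day 11, with a median change of 2.36. In the second gland of Emma 11 of 13 were more than 1 lower, with a median change of -1.57. These glands were biopsied on the same calendar days. In the second gland of Kate 7 of 13 were more than 1 lower, with a median change of -1.03, and in the first gland of Emma 5 of 13, with a median of -0.86. In Kiwi 5 of 13 were more than 1 higher, with a median of 0.75, and in the first gland of Kate the median change was 0.03. Across genes, the deviations of Cornelia from the group means on the 2 days correlated with an r of 0.03, against 0.32 to 0.52 in the other 5 glands. P13 holds 2 libraries, so at day 13 the deviations of Cornelia and of the first gland of Emma mirror each other. The r of 0.03 can therefore not be laid on Cornelia alone. Of all 8540 genes 2.25% were more than 1 higher at day 13 in Cornelia, and 0.0468% to 0.89% in the other glands. In the second gland of Emma 1.31% of all these genes were more than 1 lower. The members and the group were chosen on day 11 values, unlike the genes at large. Some rise in a gland that was lowest at day 11, and some fall in glands that were high, is therefore expected from the choice. How much the choice alone would give was not tested.

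ENSECAG00000017015, the most abundant member of group B, stood at 41.5 CPM in Cornelia, 86.7 CPM in Kiwi, 106 and 305 CPM in Emma, 183 and 442 CPM in Kate, 647 CPM in Roanie and 128 CPM in Gisela at day 11. At day 13 Cornelia held 294 CPM, Kiwi 255 CPM, the glands of Kate 221 and 191 CPM and those of Emma 50.5 and 40.2 CPM. The lowest gland had become the highest. ENSECAG00000013685 went from 7.90 to 49.5 CPM in Cornelia and from 39.5 to 8.23 CPM in the second gland of Emma. ENSECAG00000021944 went from 2.02 to 114 CPM in Cornelia and from 35.6 to 0.449 CPM in the second gland of Kate, and its day 13 SD of 2.91 was the highest of all members. ENSECAG00000024845, high at day 11 in the second glands of Kate and Emma at 51.8 and 19.8 CPM, was at 2.40 and 0.925 CPM there at day 13 and at most 1.63 CPM elsewhere.

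Group C rests on glands that were not sampled again. Gisela was the highest day 11 library for 9 of its 12 members and Roanie for the other 3. Over the 6 glands with both days the median day 11 SD of these members was 0.53, against 1.30 over all 8 glands. All 12 were then under the limit of the selection. So were some members outside group C, since 17 members in all were under it in these 6 glands. Whether Gisela and Roanie would have kept their high values was not tested. ENSECAG00000018002 has the highest day 11 SD of all members, 2.56. It stood at 92.1 CPM in Gisela, 64.2 CPM in Roanie and 1.11 to 2.43 CPM in the other 6 glands at day 11, and at 0.749 to 5.97 CPM in the 6 glands at day 13. ENSECAG00000024993, the most abundant of the group, stood at 672 CPM in Gisela, 252 CPM in Roanie and 48.3 to 89.1 CPM in the others, and at 34.3 to 108 CPM at day 13. ENSECAG00000014338 was at 412 and 196 CPM in Gisela and Roanie against 21.6 to 54.8 CPM in the others. These glands differ in status, since Gisela was labelled pregnant and Roanie non-pregnant.

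ENSECAG00000000972, outside the groups, came closest to a reversal, with an r of -0.76. It stood at 80.3 CPM in Gisela, 19.6 CPM in the second gland of Emma, 0.464 CPM in Kiwi, 1.74 CPM in Cornelia and 2.25 to 3.64 CPM in the other 4 glands at day 11. At day 13 Cornelia held 25.0 CPM and Kiwi 12.7 CPM, and the second gland of Emma, at 1.28 CPM, was the lowest. The glands of Kate stayed between 2.84 and 3.64 CPM on both days.

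**Figure D4:**
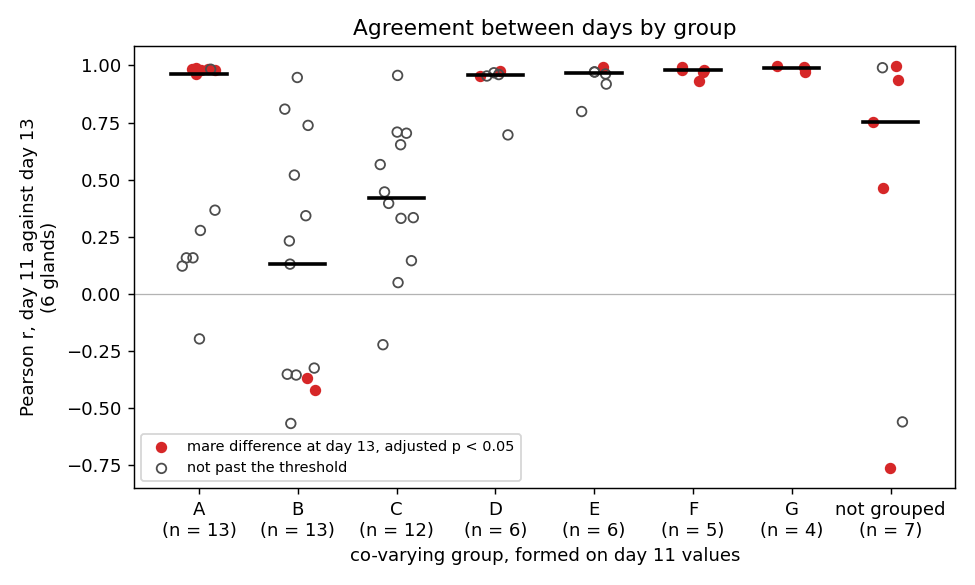
Each point is 1 member, placed by its co-varying group (x axis) and by Pearson's r between day 11 and day 13 over 6 glands (y axis); bars mark medians, and filled points passed the test of a difference among mares at day 13. Groups D to G sit at 0.70 or above, group A is divided, and groups B and C spread from -0.57 to 0.96.

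In groups F and G, the co-variation found at day 11 was about as high at day 13. In the same 6 glands the mean correlation between members went from 0.88 at day 11 to 0.90 at day 13 in group G and was 0.83 on both days in group F. It went from 0.79 to 0.56 in group E, from 0.70 to 0.54 in group D, from 0.83 to 0.39 in group A and from 0.72 to 0.36 in group B. Group C had 0.21 at day 11 and 0.24 at day 13 in these glands. Over the 8 day 11 libraries, on which the groups were formed, the values were 0.65 to 0.81. These libraries hold the 6 glands, so a fall from day 11 to day 13 is expected. Members of different groups were not compared in this way at day 13. How far values of 0.36 to 0.56 are kept co-variation was therefore not tested.

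The day 13 libraries also allowed a test of whether levels differed between mares. The mares Kate and Emma gave 2 day 13 glands each, Kiwi and Cornelia 1 each, and the fit used these 6 libraries alone. Of the 66 members, 25 differed among the mares at an adjusted p under 0.05 in edgeR's quasi-likelihood test, adjusted over all 15345 genes tested, of which 0.541% passed. These 25 are among 83 genes called in all, of which 70 averaged 10 CPM or more at day 11. The members were chosen for a wide day 11 spread over glands that include these 6. A share above that of all genes is therefore expected, and how much the choice alone would give was not tested. All 4 members of group G and all 5 of group F passed, 6 of 13 in group A, 2 each in groups B and D, 1 in group E and 0 of 12 in group C. At an unadjusted p under 0.05 in edgeR there were 51 members, 9 of them in group C, against 17.1% of all genes tested. The adjusted p in edgeR was 0.00588 for ENSECAG00000042431, 0.00588 for ENSECAG00000010565 and 0.00619 for ENSECAG00000023905.

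The test takes its error from the difference between glands of the same mare, of which there were 2 pairs. Over the members the mean distance between glands of the same mare at day 13 had a median of 0.67 on the log2 scale, and that between glands of different mares, over 13 pairs, a median of 1.39. Glands of the same mare were the closer ones for 53 of 66 members, a share of 80.3% that is near the 72.4% of all 8540 genes. The median ratio of these distances was 0.45 over the members and 0.70 over all these genes. For ENSECAG00000042431 the distances were 0.09 and 2.65. A mare difference and a kept order are not the same. ENSECAG00000017015, ENSECAG00000013685 and ENSECAG00000000972 passed the mare test at day 13 while their r between the days was below 0.

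The number called rested strongly on which glands entered. With the first gland of Emma left out it fell to 6 members of 16 genes called in all, and with the second to 7 of 16. With the first gland of Kate left out it rose to 51 members of 738 genes, and with the second to 46 of 797. DESeq2 called 43 members, where it called 6.36% of all genes. With pregnancy status as a covariate in edgeR the number was 7 of 14. At day 13 Emma alone gave glands of both statuses, so this covariate takes up the difference between the glands of Emma. The error then comes from the glands of Kate alone, as it does when a gland of Emma is left out. An effect of status on the number called cannot be told apart from this change of error. Without the first gland of Emma the adjusted p of ENSECAG00000042431 in edgeR was 0.0584, and without the second it was 0.0593. For ENSECAG00000010565 it was 0.0529 with status as a covariate.

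**Figure D5:**
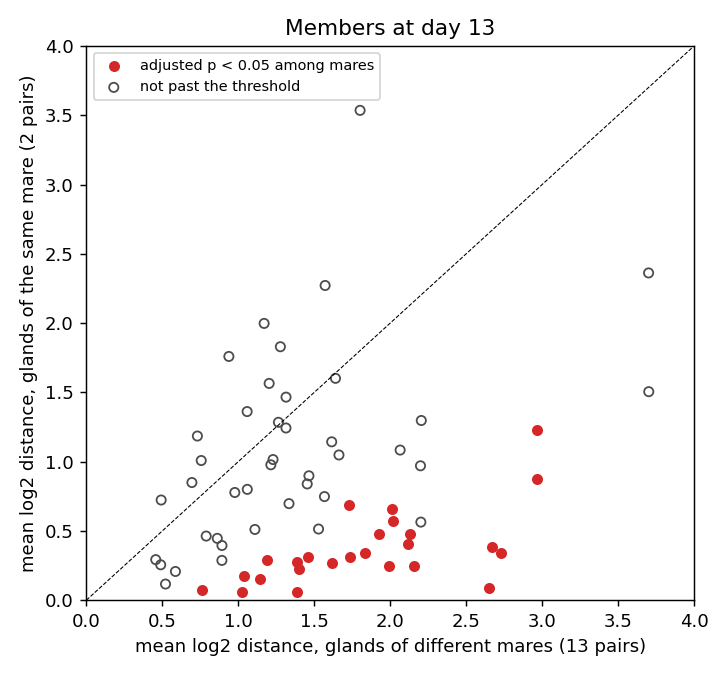
For each member the mean log2 distance at day 13 between glands of different mares (x axis, 13 pairs) is plotted against that between glands of the same mare (y axis, 2 pairs); the dashed line marks equal distances. The 25 members called among mares (filled) all lie below the line.

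Pregnancy was compared next. The choice of members used the spread of the day 11 libraries, so their day 11 counts are a description from which nothing is read. At day 11 the mean of the pregnant libraries was the lower one for 46 of 66 members, against 58.2% of all 8540 genes. All 13 members of group A and all 13 of group B were among the 46. The groups did not overlap for 3 members, all lower in P11 and all in group B, where 1.01% of all these genes were lower in P11 without overlap. The median difference in group B was -1.81 on the log2 scale at day 11. P11 holds the first gland of Kate, which is labelled non-pregnant at day 13. Without it 46 members were again lower in P11, against 50.5% of all genes, and 4 did not overlap, against 2.03%. The median difference in group B was then -1.86. With all libraries it was -0.16 at day 13, when 7 of the 13 were lower in pregnant libraries.

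At day 13, 0 of the 66 members and 0 of 15437 genes, or 0.0%, differed with pregnancy at an adjusted p under 0.05 in edgeR, and DESeq2 also called 0. The fit takes its spread from all 14 libraries, among them the day 11 libraries whose spread chose the members. P13 holds 2 libraries, so 0 calls do not show that pregnancy made no difference. With the day 13 libraries alone edgeR again called 0 members and 0 genes. At an unadjusted p under 0.05 edgeR had 1 member higher in P13 and 2 lower, against 0.926% and 1.08% of all genes. The higher one was ENSECAG00000021775, with a log2 fold change of 1.74 ± 0.68 (SE). It stood at 118 CPM in the first gland of Emma and 263 CPM in Cornelia, above the NP13 libraries at 16.1, 45.6, 89.3 and 70.5 CPM. The lower ones were ENSECAG00000010565, with -2.32 ± 0.99 (SE), and ENSECAG00000034028, with -2.63 ± 1.17 (SE). Both had been highest in Kiwi and lowest in Cornelia at day 11. These folds take no account of the mare, and of the 4 mares at day 13 Emma alone gave glands of both statuses. With the mare as a block, again over all 14 libraries, the log2 fold change was -0.33 for ENSECAG00000010565, -0.55 for ENSECAG00000034028 and 1.66 for ENSECAG00000021775. Without the library of Kiwi it was -1.47 and -1.43 for the first pair, and without that of Cornelia it was 1.14 for ENSECAG00000021775.

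Last, day 13 was set beside day 11, where the day and the earlier biopsy of the same gland cannot be told apart. This contrast uses the day 11 libraries that chose the members, so nothing is read from the counts below. In edgeR 0 members passed an adjusted p of 0.05, where 0.0324% of 15437 genes, or 5, did so. DESeq2 called 1 member, ENSECAG00000021775, where it called 0.279% of all genes. This gene went from 15.1 to 118 CPM in the first gland of Emma, from 17.8 to 70.5 CPM in the second, from 6.01 to 89.3 CPM in the second gland of Kate, from 12.9 to 45.6 CPM in Kiwi and from 7.61 to 263 CPM in Cornelia. The first gland of Kate, at 17.0 and 16.1 CPM, did not share this shift. Gisela held 48.1 CPM at day 11, within the day 13 range. The fitted log2 fold change was 2.79 ± 0.46 (SE) over all libraries and 2.62 ± 0.57 (SE) with the gland as a block. ENSECAG00000024845 was lower at day 13 in 6 of 6 glands, with a log2 fold change of -2.46 ± 0.82 (SE), and -2.26 ± 0.67 (SE) with the gland as a block.

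At an unadjusted p under 0.05 in edgeR 1 member was higher and 4 were lower, against 1.89% and 0.952% of all genes. Of the 4, 3 are in group C, which was high in Gisela and Roanie, the glands without a day 13 library. The fitted log2 fold change was -1.64 for ENSECAG00000014338 and -1.36 for ENSECAG00000024993 over all libraries. With the gland as a block, which leaves those glands out, it was -0.18 and -0.25. With the block 9 members were higher and 3 lower at an unadjusted p under 0.05 in edgeR, against 3.79% and 2.61% of all genes, and 0 passed the adjusted threshold, where 0.00656% of all genes did. For a difference between pregnant and non-pregnant libraries in the change between days, 0 of 15437 genes, or 0.0%, passed an adjusted p of 0.05 in edgeR. At an unadjusted p under 0.05 there were 5 members, against 1.66% of all genes, and this contrast also rests on the day 11 values.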

How the data were processed

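RNA from 14 luteal biopsies was made into directional libraries after poly(A) selection, per the labels' protocols. The authors deposited raw read counts per Ensembl gene. Per the submitters' processing notes, Trim Galore, STAR and EquCab3.0 were used. How reads were counted, and on which annotation, is not stated there, so counts of genes with near-identical copies are uncertain. Columns were matched to samples by the library name in the labels. Mare and gland come from the mare's name and biopsy date in the titles. Replicate numbers follow sample order and pair nothing. The 6 glands sampled on both days pair libraries by animal, and their deviations from group means correlated with r from 0.03 (Cornelia) to 0.52. P13 holds 2 libraries, whose deviations mirror each other, so the r of their glands is not comparable with the rest. No libraries were copies (chi-square per degree of freedom of at least 21.9 for every pair). P-values measure the spread between these libraries, several of which share a mare.

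CPM was the count times 1000000 over the library total. Tests were fitted on all genes kept by filterByExpr with TMM scaling, by the quasi-likelihood F test of edgeR 4.0.16 (R 4.3.3), with Benjamini-Hochberg adjustment and a threshold of 0.05. The mare test used the 6 day 13 libraries; pregnancy and day used 1 mean per group over 14 libraries. DESeq2 1.42.0 was an alternative. The scripts were tested on simulated data. There a minimum recovery was required of the pregnancy and day tests but not of the mare test. Members, lists and tests were chosen with earlier results of these data known. Named were the 10 members with the highest day 11 SD, the 10 highest and 5 lowest in r between days, the most abundant of each group and the 3 smallest p-values per test, which gave 29; 1 of them can meet several criteria. Other identifiers are not listed, and planned marker and pathway lists were not run because 0 identifiers matched a symbol of the TB-T2T reference table. No sequence could be matched to an identifier.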

Additional observations from a re-analysis of the deposited data

Results flagged for a closer look

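For the 29 named members the highest and lowest log2 value in each group of 4 libraries was set against the remaining 3. Over 87 such groups of values 11 extremes lay far from the rest. About 1 in 20 groups of independent values would show this by chance, and members were chosen for a wide spread at day 11. NP13 holds both glands of Kate, so its values are not independent and that rate does not hold there. At day 11, ENSECAG00000018002 was at 64.2 CPM and ENSECAG00000014338 at 196 CPM in NP11 replicate 1 (Roanie), against 1.42 to 2.05 CPM and 28.6 to 38.7 CPM in the other NP11 libraries. ENSECAG00000023361 was at 44.2 CPM in NP11 replicate 3 (the second gland of Kate) against 1.0 to 1.26 CPM. ENSECAG00000008236 was at 1545 CPM in NP11 replicate 2 (Kiwi) against 144 to 179 CPM. In P11, ENSECAG00000000972 was at 80.3 CPM in replicate 3 (Gisela) against 1.74 to 2.87 CPM, and replicate 4 (Cornelia) was low for ENSECAG00000034028, at 3.22 CPM against 10.9 to 12.4 CPM, and for ENSECAG00000008236, at 121 CPM against 144 to 147 CPM.

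At day 13 all 4 values that stood apart were low ones in NP13 replicate 4, the second gland of Emma. ENSECAG00000042431 was at 1.06 CPM against 14.6 to 18.8 CPM, ENSECAG00000041480 at 1.19 CPM against 20.6 to 24.8 CPM, ENSECAG00000017015 at 40.2 CPM against 191 to 255 CPM and ENSECAG00000013685 at 8.23 CPM against 25.7 to 27.7 CPM. The other NP13 libraries came from Kate and Kiwi. For these 4 genes the pregnant gland of Emma, in P13, was close to the non-pregnant one, at 1.03, 0.87, 50.5 and 8.14 CPM.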

How the results depend on the processing

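The choice of members moved little: 54 to 62 of the 66 were chosen again when 1 day 11 library was left out, and the count with a kept order was 28 to 35 with 1 gland left out, where the share of all genes was 21.7% to 24.3%, against 28 and 15.3% with 6 glands. The SD at day 13 had a median of 1.04 to 1.16 with 1 library left out. Pregnancy at day 13 gave 0 calls under every alternative run, among them the mare as a block in edgeR. For the mare difference at day 13, edgeR called 83 genes and 25 members. These became 1843 and 56 without a low-count filter, 976 and 43 in DESeq2, 1416 and 44 over all 14 libraries with group and mare as terms, and 14 and 7 with status as a covariate. With 1 library left out they ran from 16 to 797 genes and from 6 to 51 members. Leaving out the first gland of Kate is among these. For day, edgeR called 5 genes and 0 members. These became 19 and 1 without a low-count filter, 43 and 1 in DESeq2, 27 and 1 without the first gland of Kate, and 1 and 0 with the gland as a replicate block. With 1 library left out they ran from 0 to 32 genes and from 0 to 1 members. In the mare test the error came from the glands of Kate alone with status as a covariate or with a gland of Emma left out. The cause of these shifts was not tested. The means of 4 mares (38 members with a kept order, 41.2% of all genes), 1 gland per mare (36 members, 38.3% of all genes), the status counts at day 11 without the first gland of Kate and the test of whether the day effect differs with status were added after the values were seen. Depth limits the low values: 4 reads were the least for a member at day 13.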
